A study of Homo sapiens with 9 samples.

Results

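Cholesterol and fatty acid synthesis genes were described as a set of 36 named genes, which comprise the enzymes of both pathways, the proteins that sense sterols and the proteins that move or export them. A gene counted as measured where the platform annotation gave it a probe set of its own, and was represented by its brightest such probe set, judged by the mean of the 9 arrays. By this rule 33 of the 36 genes were measured, out of 19775 genes in all. CYP51A1 and FADS1, a sterol demethylase and a fatty acid desaturase, were left out because all of their probe sets (2 and 3) were shared with another gene. FDFT1, the squalene synthase gene, was not analysed here. The cells were WA09, an established line of human embryonic stem cells, and RNA from 3 conditions was hybridised to 3 Affymetrix arrays each. In the first condition DOX (doxorubicin), which damages DNA by trapping topoisomerase II on it, was present for 5 h. In the second, retinoic acid (RA, 1 µM) was present for 2 days in a medium to which no FGF was added, so these cells may differ from the controls in that growth factor too. In the third, pluripotent cells received neither agent. The labels describe cultures on irradiated mouse fibroblasts and feeder-free cultures, but not which of them gave each array. The lipid content of the medium behind each array is therefore not known.

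Cells build cholesterol from acetyl-CoA through mevalonate, isoprenoids and squalene, and build fatty acids from the same precursor through malonyl-CoA. The transcription factors SREBP-1 and SREBP-2, products of SREBF1 and SREBF2, switch on most genes of both pathways. When membrane sterol is low, the escort protein SCAP carries them from the endoplasmic reticulum to the Golgi, where they are cleaved and released. When sterol is ample, INSIG proteins hold SCAP back. Oxysterols made at high sterol load activate liver X receptors, which in turn induce the exporters ABCA1 and ABCG1 and the ubiquitin ligase gene MYLIP. Dividing stem cells draw on these pathways for new membrane, for protein prenylation and for unsaturated fatty acids.

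Values are normalised log2 intensities, on which a difference of 1 is a 2-fold change. On the 9 arrays the median probe set ranged from 4.62 to 4.68, and across genes the correlation between arrays within a condition was 0.996 to 0.998. The third pluripotent array stood somewhat apart, with a limma array weight of 0.512 against 1.52 and 1.59 for the other pluripotent arrays, so values without it are given beside the calls against the pluripotent arrays. Without it 3 lipid genes were higher (ABCA1, NPC1 and STARD4) and 3 lower (ELOVL6, GGPS1 and MYLIP) after DOX, and after RA 1 was higher (ELOVL6) and 1 lower (STARD4). The labels do not state separate cultures for replicate arrays, so the p-values describe variation among these arrays alone, and that variation may be technical. In bulk RNA of this kind, fewer cells of a type and less RNA per cell cannot be told apart. Stem cell markers were high under every condition. The log2 of the summed level of 9 of them was 15.18 to 15.28 on the DOX arrays, 15.46 to 15.54 on the RA arrays and 15.36 to 15.40 on the pluripotent arrays. After DOX 1 of the 9 fell (SOX2), after RA 2 fell (NANOG and PRDM14), and 0 rose in either comparison. Of 13 measured markers of fibroblasts and stromal cells, 5 rose and 1 fell after DOX, and 2 rose and 2 fell after RA. The log2 of their summed level was 13.21 to 13.28 on the DOX arrays, 12.10 to 12.18 on the RA arrays and 12.12 to 12.16 on the pluripotent arrays. The 5 that rose after DOX were COL1A1, THY1, TWIST1, ACTA2 and TAGLN, by 0.33 to 1.70 on the log2 scale, and several of the list were at high levels. TAGLN averaged 12.27 on the DOX arrays, 8.91 on the RA arrays and 10.68 on the pluripotent arrays, and COL1A1 averaged 11.45 on the DOX arrays, 11.37 on the RA arrays and 10.37 on the pluripotent arrays. LUM, FAP and POSTN averaged below the median probe set in all 3 groups. With the third pluripotent array left out, THY1 was not called in either comparison, NANOG was no longer called after RA, and the stem cell marker L1TD1 rose after RA. The part of these markers in the results on lipid genes, those after DOX among them, was not tested.

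Most lipid genes shifted by small amounts. After RA, 5 of 17 enzymes of sterol synthesis fell, in calls that were lost when single arrays were left out, and the elongase gene ELOVL6 rose. After DOX, the sterol transport genes NPC1 and STARD4 rose, whereas MYLIP, GGPS1, EBP and ACACA fell. Of the 6 fits that left out 1 array, the call was lost in 3 for STARD4, 5 for EBP and all 6 for ACACA. Set directly against each other, the RA and DOX arrays differed in more of these genes than either did from the pluripotent arrays. A gene was called where limma's adjusted p, after Benjamini-Hochberg adjustment over all 19775 genes, was under 0.05. After DOX 6 of 33 genes (18.2%) were called, 2 higher and 4 lower, against 15.3% of all genes (5.67% higher and 9.6% lower). That share is near the background. After RA 6 of 33 were called, 1 higher and 5 lower, against 6.47% of all genes (3.16% higher and 3.32% lower), so lower calls made up 15.2% of the set. Between RA and DOX 13 of 33 (39.4%) were called, 6 higher and 7 lower in RA, against 21.2% of all genes (12.6% higher and 8.62% lower). Calls come more easily at high levels, and 31 of the 33 genes lay above the median gene. Among all genes above that median 24.6% were called after DOX, 10.4% after RA (5.6% lower) and 34% between RA and DOX, so the members' 18.2% after DOX lay below that figure and their 39.4% between RA and DOX little above it. By direction the members' calls between RA and DOX were 18.2% higher and 21.2% lower in RA, beside 21.1% and 12.9% of genes above that median.

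The median log2 change of the 33 genes was -0.04 after DOX, -0.09 after RA and -0.02 for RA against DOX, where the medians over all genes were -0.0047, -0.0041 and -0.0040. In 17 genes the RA arrays did not overlap the pluripotent arrays, 12 of them lower and 5 higher, where 22.6% of all genes did not overlap (12.5% lower and 10.2% higher). For DOX the corresponding counts were 9 lower and 4 higher, against a background of 28.9% (17.4% lower and 11.5% higher). Between RA and DOX they were 11 lower and 7 higher in RA, against 34.8% (15.2% lower and 19.6% higher). Among all genes above the median level the groups did not overlap in 43.5% for DOX, 33.7% for RA and 52.7% for RA against DOX, beside 39.4%, 51.5% and 54.5% of the 33 genes. With both directions together, the shares for DOX and for RA against DOX are near those of genes above the median level. That match in level is coarse, since most of the 33 genes lay well above the median. By direction, RA against DOX gave 33.3% lower and 21.2% higher, against 20.5% and 32.1% of genes above the median level. DOX gave 27.3% lower and 12.1% higher, against 29.6% and 13.9%. RA against pluripotent gave 36.4% lower and 15.2% higher, against 19.7% and 14%. In all, 14 genes were called in at least 1 of the 3 comparisons and 19 in none.

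**Figure D1:**
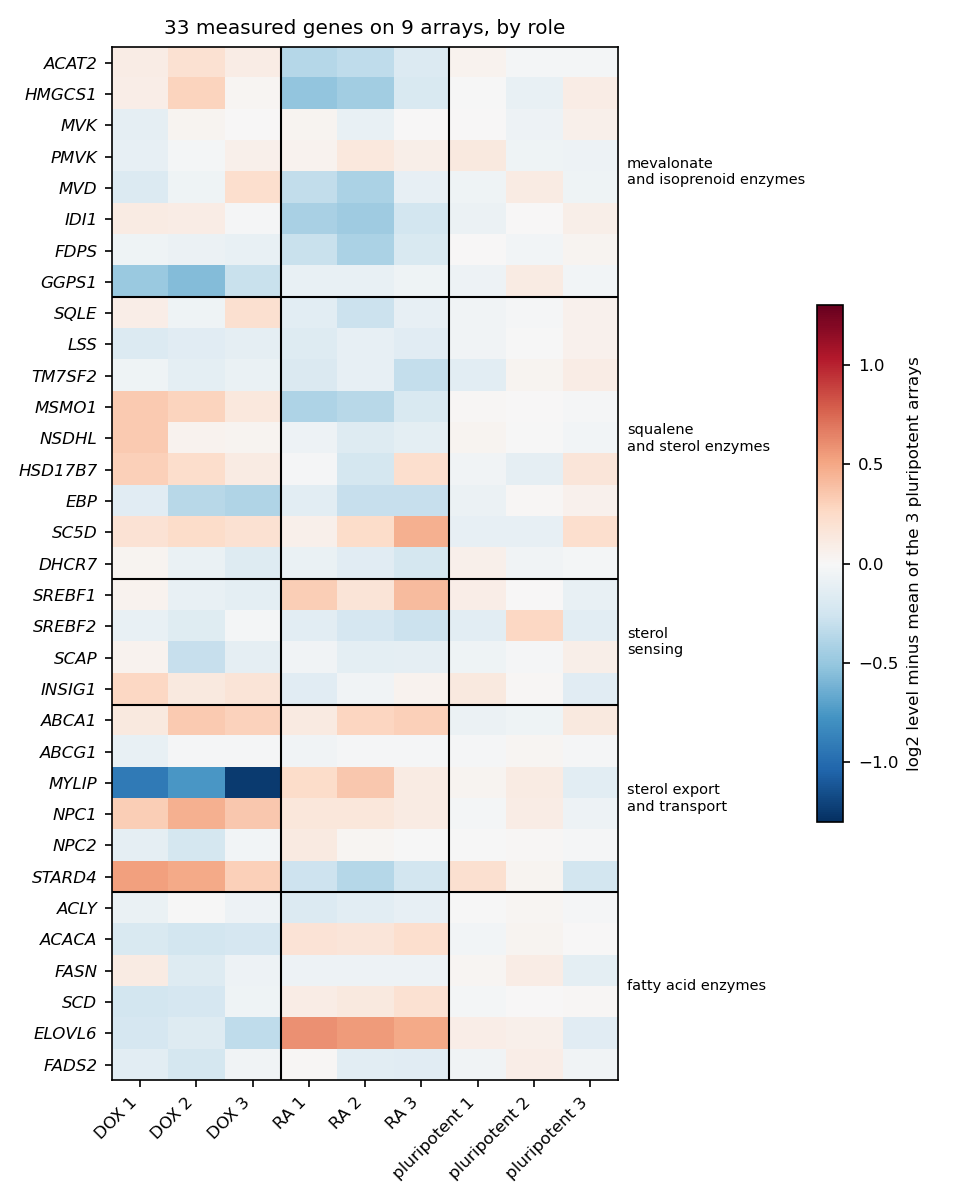
Log2 level of each of the 33 measured genes on each array minus the mean of the 3 pluripotent arrays, with genes in rows by role and the DOX, RA and pluripotent arrays in columns from left to right. Most sterol enzymes are blue on the RA arrays, ELOVL6 is red there, and MYLIP is the darkest blue row on the DOX arrays.

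The mevalonate and isoprenoid enzymes held 4 of the 5 lower calls after RA. Of 8 measured, 4 fell after RA and 0 rose, whereas after DOX 1 fell and 0 rose. Of all genes 3.32% fell after RA and 9.6% after DOX. HMGCS1, the HMG-CoA synthase gene, had log2 levels of 8.57, 8.62 and 8.88 on the RA arrays, against 9.07, 8.98 and 9.17 on the pluripotent arrays. All RA arrays were below all pluripotent arrays, the third RA array by the least. The log2 change was -0.39 ± 0.10 (SE, adjusted p = 0.0477), or a ratio of 0.764. IDI1, the isomerase that makes the activated isoprene unit, had levels of 9.11, 9.07 and 9.29 on the RA arrays, against 9.46, 9.53 and 9.61 on the pluripotent arrays (-0.38 ± 0.08, adjusted p = 0.0171). Again the groups did not overlap, and again the third RA array was nearest to the pluripotent ones. FDPS, which joins isoprene units into farnesyl diphosphate, was at 10.17, 10.05 and 10.26 on the RA arrays, against 10.46, 10.42 and 10.49 on the pluripotent arrays (-0.30 ± 0.07, adjusted p = 0.0311). ACAT2, the cytosolic thiolase at the head of the pathway, was at 9.55, 9.59 and 9.75 on the RA arrays, against 9.97, 9.91 and 9.91 on the pluripotent arrays (-0.29 ± 0.07, adjusted p = 0.0387). In each of these 4 genes every RA array lay below every pluripotent array. The 4 genes were picked by their calls on these same arrays, so this adds no evidence of its own. Their DOX values were not called, with changes of 0.13 for HMGCS1, 0.06 for IDI1, -0.08 for FDPS and 0.13 for ACAT2.

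The remaining mevalonate genes behaved otherwise. GGPS1, which makes the geranylgeranyl group used to anchor small GTPases in membranes, fell after DOX and was the only one of the 8 called in that comparison. Its levels were 8.57, 8.50 and 8.76 on the DOX arrays, against 8.99, 9.16 and 9.02 on the pluripotent arrays. The groups did not overlap, and the change was -0.45 ± 0.08 (adjusted p = 0.00425). On the RA arrays it stood at 8.96, 8.96 and 9.001, and the RA value was not called (-0.08 ± 0.08, adjusted p = 0.702). MVD, the decarboxylase of the pathway, was at -0.28 after RA with RA arrays below all pluripotent arrays, but missed the threshold (adjusted p = 0.219), and its level lay below the median gene. The kinase genes MVK and PMVK were at -0.02 and 0.08 after RA, with 95% intervals of -0.18 to 0.14 and -0.09 to 0.26, and at -0.02 each after DOX.

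The calls on the 4 enzymes after RA depended on which arrays entered the fit. Without the third pluripotent array the changes were -0.34 for HMGCS1 (adjusted p = 0.136), -0.34 for IDI1 (adjusted p = 0.0566), -0.28 for FDPS (adjusted p = 0.0829) and -0.31 for ACAT2 (adjusted p = 0.0705). None of the 5 genes called lower with all arrays kept its call without RA array 1, RA array 2, pluripotent array 2 or pluripotent array 3, and without pluripotent array 1 only IDI1 did. Without RA array 3 all 5 genes called lower kept their calls. GGPS1 kept its call after DOX without the third pluripotent array (-0.47, adjusted p = 0.00816).

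Of 9 measured enzymes from squalene to cholesterol, 1 fell after RA and 0 rose. A negative change after RA was found in 8 of the 9, some of them close to 0, and in 10170 of all 19775 genes. Taken over both stretches of the pathway, 17 sterol enzymes were measured. Of these, 5 fell and 0 rose after RA (0 and 0 without the third pluripotent array). Lower calls made up 3.32% of all genes and 5.6% of genes above the median level. A negative change was found in 15 of the 17, and in 11 every RA array lay below every pluripotent array. The latter held for 12.5% of all genes and 19.7% of genes above the median level. MSMO1, which removes methyl groups from lanosterol derivatives, had levels of 10.13, 10.17 and 10.33 on the RA arrays, against 10.54, 10.53 and 10.51 on the pluripotent arrays. It fell by 0.32 on the log2 scale (SE 0.08, adjusted p = 0.0355). On the DOX arrays it stood at 10.87, 10.82 and 10.67, all above the pluripotent arrays, with a change of 0.26 ± 0.08 that just missed the threshold (adjusted p = 0.0518). Without the third pluripotent array MSMO1 was at -0.33 after RA (adjusted p = 0.0688) and at 0.25 after DOX (adjusted p = 0.0965).

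EBP, the isomerase that shifts the sterol double bond, was the 1 gene of this stretch called after DOX. Its levels were 9.33, 9.11 and 9.08 on the DOX arrays, against 9.40, 9.49 and 9.53 on the pluripotent arrays (-0.30 ± 0.09, adjusted p = 0.0394). The call was lost in 5 of the 6 fits that left out 1 array and under several other settings, without the third pluripotent array too (-0.27, adjusted p = 0.0905). After RA EBP was at -0.25 and not called (adjusted p = 0.145). SQLE, the squalene monooxygenase and a rate-limiting step, was at -0.18 after RA (adjusted p = 0.31) and 0.08 after DOX. LSS, which closes the sterol rings, was at -0.14 and -0.15, TM7SF2 (a sterol reductase) at -0.20 and -0.09, and DHCR7 (the last reductase of the pathway) at -0.15 and -0.07 after RA and DOX. NSDHL and HSD17B7, which act with MSMO1 in demethylation, were at -0.12 and -0.01 after RA, and at 0.14 and 0.22 after DOX. SC5D, a sterol desaturase, was the exception after RA at 0.26 (adjusted p = 0.274), and its pluripotent arrays were themselves spread, at 9.52, 9.52 and 9.85. With the probe set used, none of these 7 genes was called in any comparison.

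Promoters are shown for genes called after RA because sterol enzyme genes are known SREBP targets, which NF-Y, a factor that binds CCAAT, helps to activate. The RefSeq promoter table (GRCh38.p14) matched 29 of the 33 genes with 41 annotated starts, each as 250 bases before and 50 after the start. The sequences give the 250 bases before the start, 5′ to 3′ on the gene's own strand. Capitals mark CCAAT on either strand (ATTGG is its complement) and, in SREBF2, the sterol regulatory element letters TCACNCCAC. HMGCS1 lies at chr5:43313413-43313662, minus strand; IDI1 at chr10:1049120-1049369, minus strand; FDPS at chr1:155308616-155308865, plus strand; and MSMO1 at chr4:165327419-165327668, plus strand. They stand for 4 of the 5 genes called lower after RA. ELOVL6, called higher after RA, lies at chr4:110198616-110198865, minus strand, and SREBF2, whose product drives the sterol enzymes, at chr22:41832855-41833104, plus strand. Where a gene has several starts, the one farthest upstream that holds a CCAAT is shown.
HMGCS1: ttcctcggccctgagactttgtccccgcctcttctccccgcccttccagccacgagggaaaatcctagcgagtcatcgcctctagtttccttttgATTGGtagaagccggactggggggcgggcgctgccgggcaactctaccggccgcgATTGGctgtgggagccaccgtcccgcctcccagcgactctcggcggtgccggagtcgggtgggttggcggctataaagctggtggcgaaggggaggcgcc
IDI1: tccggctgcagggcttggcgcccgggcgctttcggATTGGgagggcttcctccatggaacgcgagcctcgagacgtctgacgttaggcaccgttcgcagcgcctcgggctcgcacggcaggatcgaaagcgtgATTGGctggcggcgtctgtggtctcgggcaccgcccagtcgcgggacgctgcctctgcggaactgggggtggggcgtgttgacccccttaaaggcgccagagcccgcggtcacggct
FDPS: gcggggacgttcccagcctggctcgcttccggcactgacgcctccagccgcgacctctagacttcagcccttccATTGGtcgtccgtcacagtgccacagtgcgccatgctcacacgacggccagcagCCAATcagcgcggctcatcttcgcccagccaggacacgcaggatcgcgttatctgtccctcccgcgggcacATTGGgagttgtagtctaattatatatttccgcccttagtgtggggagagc
MSMO1: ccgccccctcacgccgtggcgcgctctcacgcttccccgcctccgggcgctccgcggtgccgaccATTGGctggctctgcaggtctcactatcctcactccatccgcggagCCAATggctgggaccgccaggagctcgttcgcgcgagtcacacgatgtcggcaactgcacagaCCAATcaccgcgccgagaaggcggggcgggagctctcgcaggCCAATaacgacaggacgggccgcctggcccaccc
ELOVL6: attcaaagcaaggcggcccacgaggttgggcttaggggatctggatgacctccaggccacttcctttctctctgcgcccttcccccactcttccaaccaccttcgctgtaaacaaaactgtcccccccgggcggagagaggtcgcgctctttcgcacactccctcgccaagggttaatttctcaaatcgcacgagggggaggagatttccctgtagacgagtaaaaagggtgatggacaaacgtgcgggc
SREBF2: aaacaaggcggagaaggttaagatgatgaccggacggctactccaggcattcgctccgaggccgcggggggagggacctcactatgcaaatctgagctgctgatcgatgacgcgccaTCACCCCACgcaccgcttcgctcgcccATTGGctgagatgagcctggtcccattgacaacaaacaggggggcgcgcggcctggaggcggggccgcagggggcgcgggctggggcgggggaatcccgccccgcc

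In the windows shown CCAAT occurred 2 times before HMGCS1, 2 times before IDI1, 3 times before FDPS and 4 times before MSMO1, at 30 to 211 bases before the start, and 0 times before ELOVL6. For HMGCS1 and IDI1 the start was picked for holding a CCAAT, so these counts are a description only. The other HMGCS1 start held 0, and the other IDI1 starts held 0 (the farthest upstream) and 3. FDPS, MSMO1 and ELOVL6 have 1 start each in the promoter table. The ELOVL6 start, at 110198615 on the minus strand, lies inside the annotated gene, whose 5′ end is at 110199202. Its window is therefore not the one at the gene's 5′ end, which was not searched. Over the 300-base windows, 14 of the 15 sterol enzymes with an entry held a CCAAT at 1 or more starts, and so did 23 of the 29 matched genes (79.3%), against 39.7% of all 27305 genes in the table. Counted by start, the shares were 65.9% of 41 and 34.6% of 35116. Sterol enzymes not called after RA held CCAAT too, with 5 each in MVK and NSDHL and 3 each in MVD and EBP. PMVK, not called either, held 0. Whether CCAAT counts go with the RA calls was not tested. The letters TCACNCCAC were found at 1 of the 41 starts, that of SREBF2 (1.13% of all starts), 125 bases before it. The E-box CACGTG was found in 5 of the 29 genes (17.2%), against 8.77% of all genes. GGGCGG, bound by Sp1 factors, was found in 28 of 29 (96.6%), against 48.3%. The background for each motif is every gene in the promoter table, measured on the arrays or not. It was not matched for expression level or base content. Searches covered both strands for the exact letters only, and no motif was required to be clear of another. Variant letters and sites outside the windows were not counted, so a missing match does not show that a site is lacking. A match describes the letters in these windows and not binding.

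**Figure D2:**
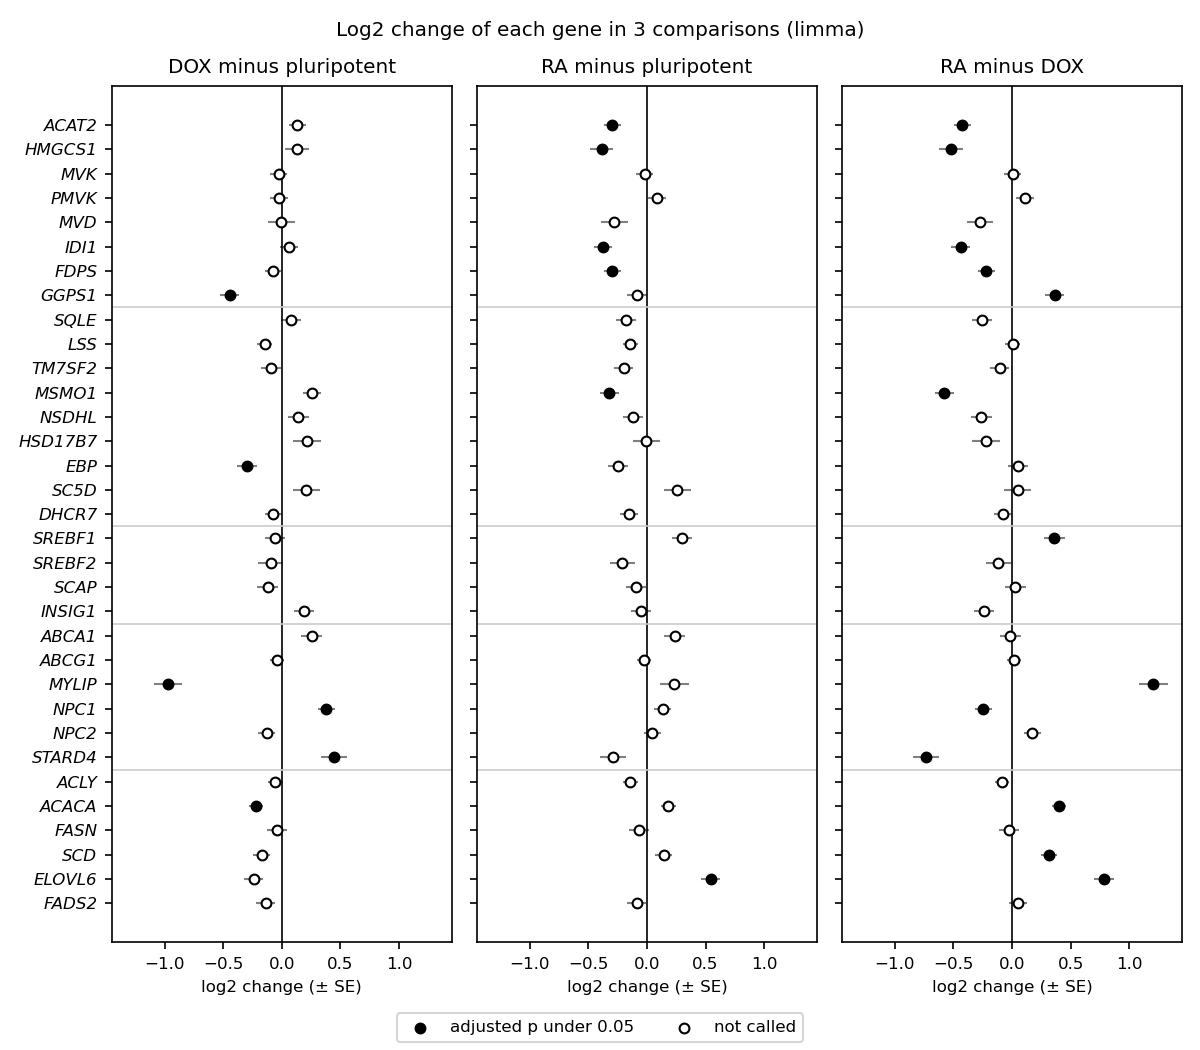
Log2 change of each measured gene with its standard error, as DOX minus pluripotent (left), RA minus pluripotent (middle) and RA minus DOX (right), with grey lines between the roles. Filled points passed the adjusted p of 0.05. Among the sterol enzymes the filled points lie left of 0 after RA, and in the right panel 13 genes are filled.

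The sterol sensing genes were not called against the pluripotent arrays. Of SREBF1, SREBF2, SCAP and INSIG1, 0 were called after DOX and 0 after RA by limma, and at an unadjusted p under 0.05 the counts were 0 after DOX and 1 after RA. That 1 was SREBF1, which encodes the SREBP that favours fatty acid genes. Its levels were 6.44, 6.28 and 6.53 on the RA arrays, against 6.21, 6.12 and 6.02 on the pluripotent arrays. The groups did not overlap, and the change of 0.30 ± 0.09 did not pass the adjusted threshold (adjusted p = 0.0724). SREBF2 was at -0.21 after RA (adjusted p = 0.354) and -0.10 after DOX, with 1 pluripotent array at 8.20 and the others at 7.79. SCAP was at -0.09 after RA and -0.12 after DOX. INSIG1, itself a sensitive SREBP target, was at -0.05 after RA (95% interval -0.24 to 0.14) and at 0.19 after DOX (95% interval -0.0037 to 0.38, adjusted p = 0.193). It did not pass the test in either comparison.

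Among the sterol export and transport genes, calls were made after DOX. Of 6 measured, 2 rose and 1 fell after DOX, and 0 passed limma's test after RA in either direction (at an unadjusted p under 0.05, 1 higher and 1 lower). Of all genes 5.67% rose and 9.6% fell after DOX, and counts among 6 genes are a description only. MYLIP, a ubiquitin ligase that sends lipoprotein receptors to degradation, had the largest change of the 33 genes after DOX. Its levels were 7.35, 7.51 and 7.02 on the DOX arrays, against 8.30, 8.37 and 8.13 on the pluripotent arrays. The groups were well apart, and the change was -0.97 ± 0.12 (adjusted p = 0.000383), a ratio of 0.51. Without the third pluripotent array it was -1.04 (adjusted p = 0.000664). On the RA arrays MYLIP stood at 8.51, 8.62 and 8.37, and the change against pluripotent arrays was not called (0.23 ± 0.12, adjusted p = 0.378).

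NPC1, which lifts cholesterol out of lysosomes, rose after DOX. Its levels were 8.45, 8.59 and 8.47 on the DOX arrays, against 8.09, 8.22 and 8.06 on the pluripotent arrays, with no overlap. The change was 0.38 ± 0.07 (adjusted p = 0.00431) with all arrays and 0.35 (adjusted p = 0.0131) without the third pluripotent array. Its partner NPC2 was not called (-0.13, adjusted p = 0.283). STARD4, a cytosolic sterol carrier, rose as well. Its levels were 8.70, 8.65 and 8.47 on the DOX arrays, against 8.37, 8.19 and 7.92 on the pluripotent arrays (0.45 ± 0.11, adjusted p = 0.0191). The third pluripotent array was the lowest of the 3, and without it the change was 0.33 (adjusted p = 0.0419). The call was lost in 3 of the 6 fits that left out 1 array, without DOX array 1 (0.40, adjusted p = 0.0653), DOX array 2 (0.42, adjusted p = 0.0648) or pluripotent array 2 (0.46, adjusted p = 0.0525). On the RA arrays STARD4 stood at 7.89, 7.79 and 7.92, which gave -0.29 (adjusted p = 0.183). It became -0.41 without the third pluripotent array and was called (adjusted p = 0.033), the 1 member then called lower after RA.

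The exporters did not pass the test in either comparison. ABCA1, which loads cholesterol onto apolipoproteins, was at 7.86, 8.07 and 8.02 on the DOX arrays and 7.84, 8.01 and 8.04 on the RA arrays, against 7.66, 7.67 and 7.86 on the pluripotent arrays. Its changes were 0.26 ± 0.09 after DOX (adjusted p = 0.0843) and 0.24 ± 0.09 after RA (adjusted p = 0.177). Without the third pluripotent array the DOX value was 0.32 and was called (adjusted p = 0.0391). These comparisons share the pluripotent arrays. ABCG1 lay between 4.02 and 4.14 on all 9 arrays, below the median probe set, so its level is not shown to be above background.

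Of 6 measured fatty acid enzymes, 0 rose and 1 fell after DOX, and after RA 1 rose and 0 fell. Over all genes 5.67% rose and 9.6% fell after DOX, and 3.16% rose and 3.32% fell after RA. All 6 changes after DOX were negative, as were those of 10117 of all 19775 genes, and 3 of the 6 (ACLY, FASN and FADS2) had intervals that included 0. ELOVL6, which lengthens palmitate to stearate, rose after RA. Its levels were 10.54, 10.49 and 10.43 on the RA arrays, against 10.03, 10.01 and 9.80 on the pluripotent arrays, with no overlap. The change was 0.54 ± 0.08 (adjusted p = 0.0021), a ratio of 1.46, and 0.47 without the third pluripotent array (adjusted p = 0.00633). On the DOX arrays it stood at 9.73, 9.77 and 9.61, a change of -0.24 (adjusted p = 0.0777), which was called without the third pluripotent array (-0.31, adjusted p = 0.022).

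ACACA, the carboxylase that makes malonyl-CoA and commits carbon to fatty acids, fell after DOX. Its levels were 9.07, 9.02 and 9.04 on the DOX arrays, against 9.23, 9.30 and 9.27 on the pluripotent arrays (-0.22 ± 0.06, adjusted p = 0.0339). The call was lost in all 6 fits that left out 1 array, the third pluripotent array among them (-0.22, adjusted p = 0.06). On the RA arrays ACACA stood at 9.44, 9.42 and 9.48, above all pluripotent arrays, but was not called (0.18, adjusted p = 0.127). SCD, the desaturase that makes oleate, had a similar order, with levels of 11.01, 11.04 and 11.20 on the DOX arrays, 11.36, 11.39 and 11.46 on the RA arrays and 11.23, 11.27 and 11.27 on the pluripotent arrays. Neither change against the pluripotent arrays was called (-0.17 after DOX and 0.14 after RA). ACLY, which supplies cytosolic acetyl-CoA, was at -0.06 after DOX and -0.14 after RA. FASN, the synthase itself, was at -0.04 (95% interval -0.23 to 0.15) and -0.07 (95% interval -0.26 to 0.12), and the desaturase gene FADS2 at -0.14 and -0.09.

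**Figure D3:**
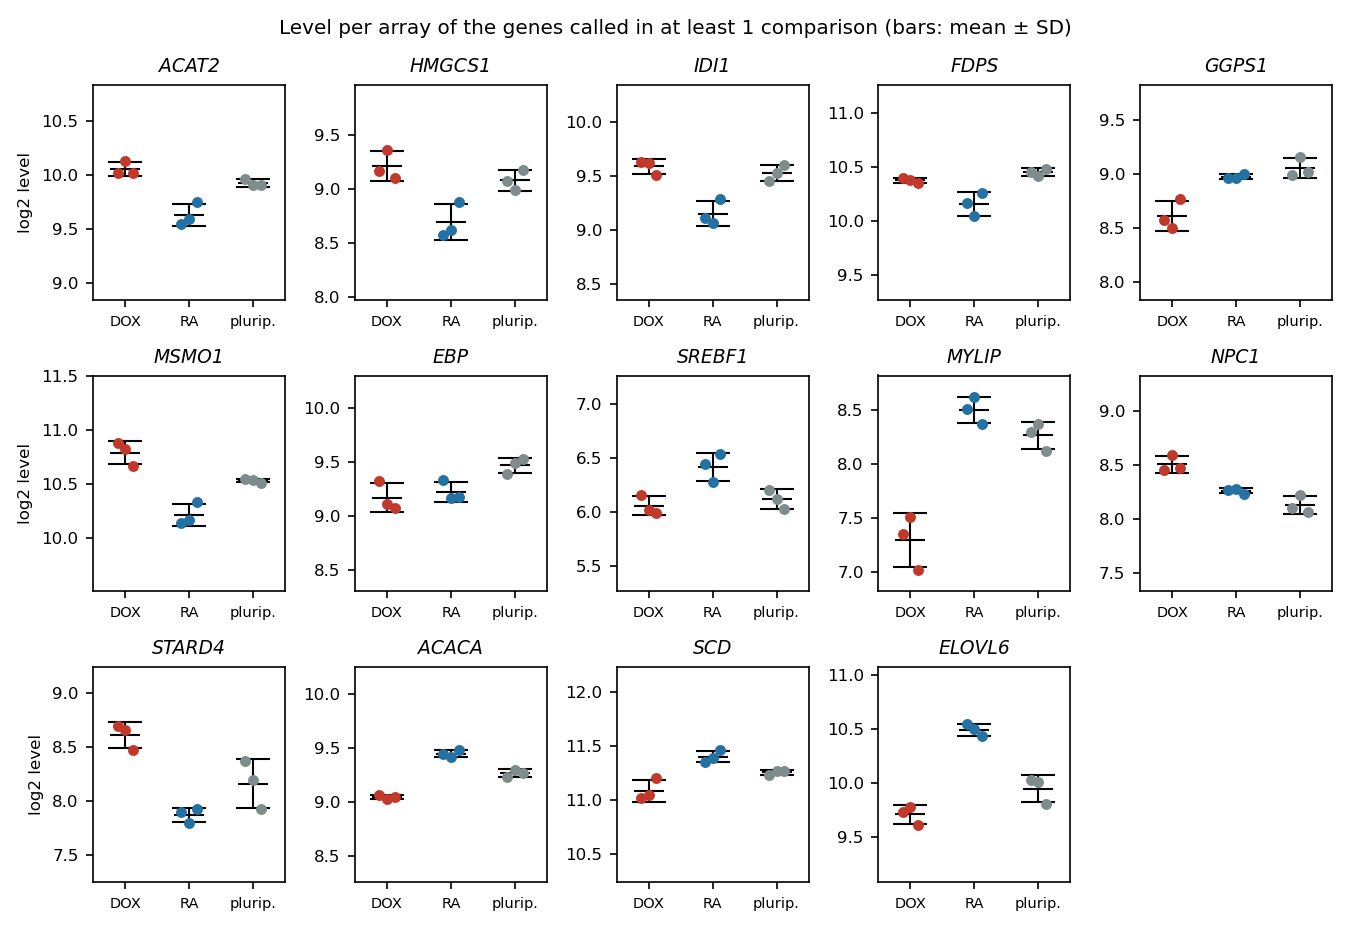
Log2 level on each array (points, left to right DOX, RA and pluripotent) of the 14 genes called in at least 1 comparison, with the mean and SD of 3 arrays as bars, each panel spanning 2 log2 units. In HMGCS1, IDI1 and MSMO1 the RA points lie lowest, in ELOVL6, ACACA and SCD they lie highest, and in MYLIP and GGPS1 the DOX points lie lowest.

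The direct comparison of RA with DOX uses no pluripotent array, so the array that stood apart enters it only through the shared estimate of spread. Time, agent and medium all differ between these arrays and cannot be told apart. Most called sterol enzymes were lower in RA than in DOX, and the called fatty acid enzymes were higher. Of 17 sterol enzymes 5 were lower and 1 higher, of 6 transport genes 2 were lower and 1 higher, and of 6 fatty acid enzymes 0 were lower and 3 higher. Of all genes 8.62% were lower and 12.6% higher, and of genes above the median level 12.9% and 21.1%. With so few genes per list these counts are a description only. MSMO1 was lower by 0.58 on the log2 scale (-0.58 ± 0.08, adjusted p = 0.000372), with RA arrays at 10.13 to 10.33 and DOX arrays at 10.67 to 10.87. STARD4 differed by -0.74 ± 0.11 (adjusted p = 0.000709), HMGCS1 by -0.52 ± 0.10 (adjusted p = 0.00377), IDI1 by -0.44 ± 0.08 (adjusted p = 0.00257) and ACAT2 by -0.43 ± 0.07 (adjusted p = 0.00178). FDPS (-0.22, adjusted p = 0.0496) and NPC1 (-0.25, adjusted p = 0.0304) passed narrowly, and each lost its call in 5 of the 6 fits that left out 1 array. SQLE at -0.26 (adjusted p = 0.0509) and NSDHL at -0.26 (adjusted p = 0.0579) missed by little. In a limma fit over every probe set, 2 other probe sets of SQLE were called lower, at -0.40 (adjusted p = 0.0258) and -0.44 (adjusted p = 0.00478). The dimmest SQLE probe set was at 0.14 and not called. The second probe set of NSDHL was called lower in that fit, at -0.31 (adjusted p = 0.0314).

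The genes higher in RA than in DOX were MYLIP (1.21 ± 0.12, adjusted p = 4.74e-05), ELOVL6 (0.78 ± 0.08, adjusted p = 5.49e-05), ACACA (0.40 ± 0.06, adjusted p = 0.00078), GGPS1 (0.36 ± 0.08, adjusted p = 0.00936), SREBF1 (0.36 ± 0.09, adjusted p = 0.0118) and SCD (0.31 ± 0.07, adjusted p = 0.00877). ELOVL6, ACACA, GGPS1, MSMO1, STARD4, HMGCS1 and ACAT2 kept this call under each alternative run. MVK, LSS, SC5D, ABCG1, SCAP, ABCA1, FASN, FADS2 and EBP lay between -0.02 and 0.05 and were not called. Over the 19 genes called in no comparison, the RA minus DOX changes ran from -0.27 to 0.17.

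Other probe sets of the same gene were read as a check on the one chosen, since 23 of the 33 genes had several. All 3 probe sets of ELOVL6 were called higher after RA, at 0.54, 0.62 and 0.78 in a fit over every probe set alone. For MYLIP 4 of 6 probe sets were called lower after DOX, at -0.97, -0.94, -0.49 and -0.50, and the other 2, at low levels of 4.87 and 4.14, were not. Those 2 are the only MYLIP probe sets without an x_at or s_at suffix. For IDI1 the pair of bright probe sets were at -0.38 and -0.29 after RA, and the pair of dimmer ones at 0.02 and -0.05. All but 1 of the 4 carry the suffix x_at, which marks probes that may also match other transcripts. For SQLE the probe set used was not called after RA, but another, at a mean level of 5.49, was at -0.48 (adjusted p = 0.00806). The higher value of SCD in RA than in DOX rests on its brightest probe set alone, since the others were at 0.04, -0.13 and -0.24. NPC1 likewise rests on 1 of 4, its other 3 lying below the median probe set. SREBF1 in RA against DOX rests on 1 of 2. Its other probe set, at a mean level of 4.68, was at -0.01 in the limma fit over every probe set (adjusted p = 0.934). The SREBF1 call was lost with the mean of all probe sets and without RA array 3.

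**Figure D4:**
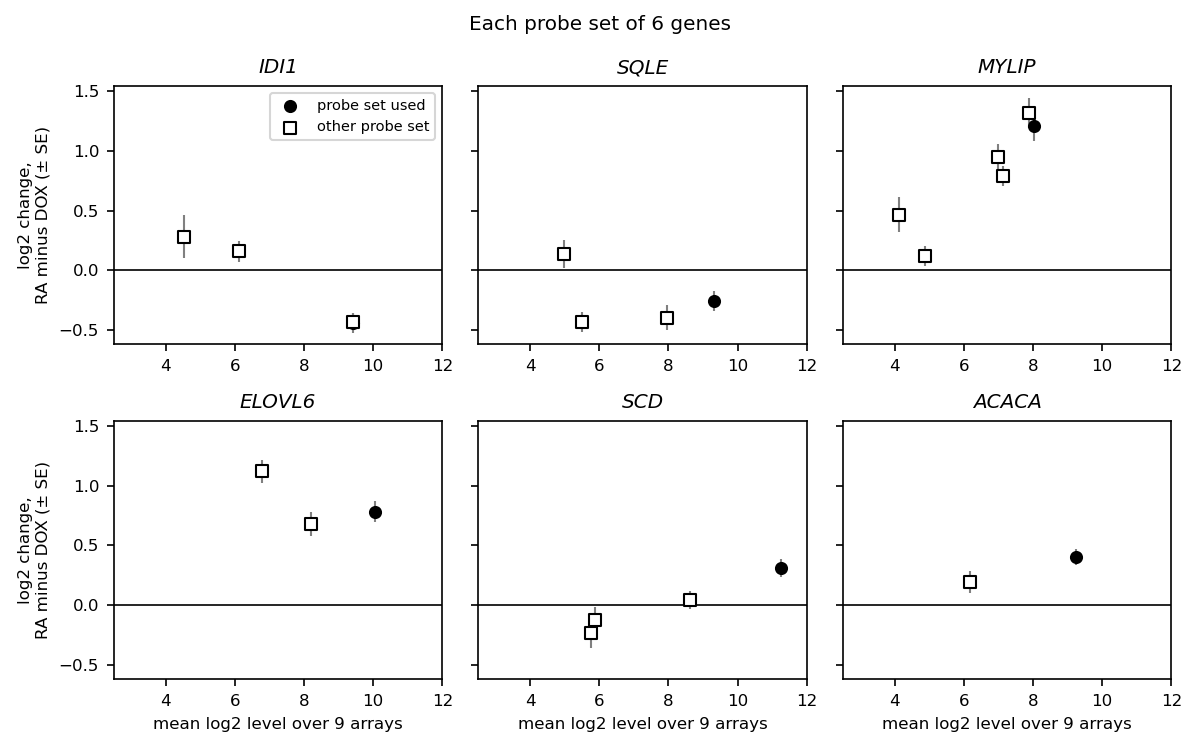
Log2 change of every probe set of 6 genes between RA and DOX (vertical axis, RA minus DOX, with standard errors) against its mean log2 level over 9 arrays (horizontal axis). The probe set used is filled; the 3 probe sets of ELOVL6 all lie above 0, the bright pair of IDI1 lies near -0.43, and 1 of 4 probe sets of SCD is clearly above 0.

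Several genes called with 1 probe set per gene had less support in the fit over every probe set. For EBP after DOX a second bright probe set, at a mean level of 8.68, was at -0.10 (adjusted p = 0.472), against -0.30 (adjusted p = 0.0616) for the one used. For ACACA after DOX the second probe set was at 0.13 (adjusted p = 0.466), against -0.22 (adjusted p = 0.062) for the one used, so the signs differed. For GGPS1 after DOX the second was at -0.28 and not called (adjusted p = 0.202), against -0.45 (adjusted p = 0.00743) for the one used. After RA the probe sets used for ACAT2, HMGCS1, FDPS and MSMO1 were not called in that fit either, with adjusted p of 0.0652, 0.0721, 0.0554 and 0.0596.

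Further genes of the same pathways, outside the 36, were counted from 2 lists. Of 18 measured sterol-related genes, 1 rose and 0 fell after DOX, and 0 rose and 1 fell after RA. CH25H, which makes 25-hydroxycholesterol, rose after DOX, with levels of 4.18, 4.82 and 4.79 on the DOX arrays, against 3.52, 3.48 and 3.71 on the pluripotent arrays (1.02 ± 0.16, adjusted p = 0.00149). All pluripotent arrays and DOX array 1 were below the median probe set for CH25H, so the size of this change is not well measured. SOAT1, which esterifies cholesterol for storage, fell after RA, with levels of 5.34, 5.39 and 5.37 on the RA arrays, against 5.86, 5.83 and 6.10 on the pluripotent arrays (-0.56 ± 0.13, adjusted p = 0.0237). SOAT1 was, without the third pluripotent array (its highest), at -0.48 and not called (adjusted p = 0.0807). Of 20 measured genes related to fatty acids, 1 rose and 5 fell after DOX, and 1 rose and 1 fell after RA. Beside both lists, 5.67% of all genes rose and 9.6% fell after DOX, and 3.16% rose and 3.32% fell after RA. LPIN1, a phosphatidate phosphatase, fell the most after DOX, with levels of 5.38, 5.60 and 5.37 on the DOX arrays, against 6.79, 6.67 and 6.43 on the pluripotent arrays (-1.18 ± 0.10, adjusted p = 3e-05).

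The others that fell after DOX were ACSL4 (-0.68), an acyl-CoA ligase, the elongases ELOVL4 (-0.46) and ELOVL5 (-0.31), and MID1IP1 (-0.43), which promotes the activity of acetyl-CoA carboxylase. FADS3 rose (0.47). After RA the elongase gene ELOVL7 rose, with levels of 7.64, 7.91 and 7.86 on the RA arrays, against 6.85, 6.90 and 6.71 on the pluripotent arrays (0.98 ± 0.10, adjusted p = 0.000167). ME1, the malic enzyme that supplies NADPH for lipid synthesis, fell after RA, with levels of 6.81, 6.86 and 6.65 on the RA arrays, against 7.40, 7.53 and 7.33 on the pluripotent arrays (-0.65 ± 0.10, adjusted p = 0.00324). Without the third pluripotent array all related genes named here except SOAT1 kept their calls. ACSL4, whose pluripotent arrays were at 6.89, 6.52 and 6.02, was then at -0.90 (adjusted p = 0.00167), and ACSL1, HACD2 and TMEM97 were called as well after DOX, at -0.48, -0.32 and 0.25.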

How the data were processed

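Log2 values for each probe set were deposited by the authors, who used RMA from the package affy, per the submitters' processing notes (version: not given in the sources used here). Background correction, quantile normalisation and probe set summary are the steps of RMA, which removes shifts shared by most genes and compresses changes of dim probe sets. Of 54675 probe sets, 62 controls were left out, and 41091 named 1 gene. Of these, 41037 were matched to RefSeq by Entrez identifier. A model with 3 groups was fitted to 9 arrays and 19775 genes with limma 3.58.1 in R 4.3.3 (lmFit, eBayes, no filter on low values). The fit was tested on simulated data. Calls use a Benjamini-Hochberg adjusted p under 0.05 over all genes, and intervals are 95%. The number of arrays limits the precision.

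Every measured member was named, with values per array for those called. Of the related lists, called genes were named. The members and lists were chosen with earlier results of these data known. Alternatives changed the probe set, filter, spread, samples, weights, scaling or replicate block, or left out an array. Some items are not reported here.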

Additional observations from a re-analysis of the deposited data

How the results depend on the processing

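Alternative settings moved the counts of called lipid genes by a few genes each; the cause was not tested. After DOX the count higher was 4 for genes above the median level and 4 with array weights, and the count lower was 2 with the mean of all probe sets, 0 without x_at and s_at probe sets, 2 with arrays centred on their median, 2 after further quantile normalization and 2 with only the compared groups. After RA the count higher was 2 with the mean of probe sets and 3 above the median level, and the count lower was 2 without x_at and s_at, 3 centred, 3 after quantile normalization and 2 with only the compared groups. Without x_at and s_at probe sets 407 of all genes were lower after RA, and 4 lipid genes were lower in RA than in DOX. Leaving out 1 array gave 1 to 3 lipid genes higher and 2 to 3 lower after DOX, and 0 to 5 lower after RA. Over all genes it gave 1129 to 2208 lower after DOX, and 406 to 526 higher and 435 to 644 lower after RA.

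The median change of the lipid genes after DOX was -0.0083 with the mean of probe sets, -0.059 with array weights, -0.016 centred and -0.0071 after quantile normalization. After RA it was -0.038 with the mean of probe sets and -0.051 without x_at and s_at, and -0.12 to -0.064 leaving out 1 array. For RA against DOX it was 0.0032 without x_at and s_at, -0.050 centred, -0.064 after quantile normalization, and -0.063 to -0.025 leaving out 1 array. The sign turned for MYLIP after DOX (0.0065) and IDI1 in RA against DOX (0.28) without x_at and s_at probe sets, which left dim probe sets, and for SCD in RA against DOX with the mean of probe sets (-0.00067). The related genes and markers without the third pluripotent array were computed as an alternative chosen after seeing the data. ELOVL6 kept its call after RA under all 15 alternatives run.

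Replicate numbers are shared between groups, but nothing in the labels ties a number to a culture or day. Deviations of same-numbered arrays correlated at -0.10 to 0.20 over 9 pairs, 4 of them over 0.1. For differently numbered arrays the range was -0.25 to 0.13 over 18 pairs, 2 of them over 0.1, so the ranges overlap. Of 9 arrays, 7 correlated best with an array of their own number, a weak hint from the data and not the design. With the replicate block 2 lipid genes were lower after RA, FDPS and IDI1, and over all genes 1147 were higher and 1934 lower after DOX, and 642 higher and 645 lower after RA. Levels below the median probe set limit ABCG1 and CH25H, and 3 arrays a group limit the precision of small changes.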
